A study of Caenorhabditis elegans with 24 samples.

Results

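Antisense small RNAs were followed at 232 pseudogenes of Caenorhabditis elegans, the most strongly covered of the 2061 pseudogenes listed among 46726 features. A pseudogene is an annotated relative of a functional gene that carries a disabling change such as a stop, a frameshift or a missing part. The 232 have the biotype pseudogene in Ensembl release 115 (WBcel235) and 50 or more normalized counts in at least 2 of 24 libraries, and the pseudogenes C25D7.2 and F59A1.9 were set aside. A normalized count is a number of reads divided by a scaling factor of its library.

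The libraries held small RNAs of whole young adults grown at 20 °C on OP50 bacteria, with 2 biological replicates in each of 12 groups. The triple mutant, strain YY1512, carried hrde-1 with meg-3 meg-4, and the double mutant, strain JH3225, carried meg-3 meg-4 alone. A further 9 groups were animals of wild-type genotype that descended from an outcross of meg-3 meg-4 animals, sampled at every generation from F3 to F7 and then at F10, at F15, at F20 and lastly at F25. The wild-type group was strain N2. Alleles are not named in the labels, and no hrde-1 single mutant was among the libraries, so an effect of hrde-1 can be read only in animals that also lack meg-3 and meg-4. Since whole animals were used, a change in the number of cells that hold a small RNA and a change in its amount per cell cannot be told apart.

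In C. elegans, RNA-dependent RNA polymerases copy transcripts into short antisense RNAs that are loaded onto Argonaute proteins and silence genes of matching sequence. Pseudogene transcripts are among the templates of this amplification. HRDE-1 is a nuclear Argonaute of the germline that helps carry silencing from parents to offspring. MEG-3 and MEG-4 are disordered proteins needed to build germ granules in the embryo, the compartments where many factors of the small RNA pathway gather.

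Recovered reads ranged from 392785 to 3420345 per library, with the fewest in F10 replicate 1 and in F4 replicate 2 (395527). A single read was worth 5.47 and 4.99 normalized counts in these libraries, and 0.51 to 1.86 in the other 22. The small RNAs at meg-3 fell to 7.80 normalized counts in meg-3 meg-4 and 9.57 in the triple mutant, against 53.5 in wild type. At meg-4 they fell to 8.05 in meg-3 meg-4 and 2.82 in the triple mutant, against 64.6 in wild type. At hrde-1 the triple mutant held 629 and 599.9 normalized counts, against 1351 and 1359.9 in wild type. The counts cover the whole annotated gene and the allele is not named in the labels, so they check that label only in part. Small RNAs at marker genes of other cell types also differed between groups. The summed level of the 4 kept sperm genes was 36.3 to 50.4 in the triple mutant, 32.4 to 34.3 in meg-3 meg-4, 87.8 to 92.4 at F3, 180.4 to 202 at F10, 163 to 185 at F25 and 134 to 137 in wild type. None of the 4 was at 0 throughout, and 8 of the 12 listed sperm genes were under the filter. The sum of 5 neuronal genes was 429 to 440.3 in the triple mutant, 165 to 220.1 in meg-3 meg-4, 156 to 221 at F3, 174 to 191 at F10, 295 to 494 at F25 and 489.7 to 546 in wild type. Both sums were higher at F25 than at F3, and the sperm sum was then above wild type. The sums did not stand for every gene of a list. Against wild type, the median log2 change of the neuronal genes was 0.17 in meg-3 meg-4, with 1 called lower. It was 0.26 in the triple mutant, with 0 called. For the sperm genes the median against wild type was -1.67 in meg-3 meg-4, with 3 called lower and 0 higher. It was -0.74 in the triple mutant, with 2 called lower and 0 higher, and -0.68 at F3, with 1 called lower. At F10 the median was -0.62, with 1 called higher and 1 lower. At F25 it was -0.15, with 0 called. Kept were 9 oocyte and eggshell, 5 neuronal, 4 intestine and 4 body muscle genes. At most 2 of each of these lists were called in either direction in any comparison. The part of these differences in the results on pseudogenes was not tested.

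The 232 pseudogenes lay on all chromosomes, 36 on I, 46 on II, 20 on III, 49 on IV, 43 on V and 38 on X. Chromosome V held 41.1% of all listed pseudogenes but 18.5% of the strongly covered ones. On V, 5.08% of the listed pseudogenes were strongly covered, against 22.1% on X. Their annotated exons covered 73 to 6473 bases, with a median of 993. The level, averaged over 24 libraries, ran from 16.8 to 10642 normalized counts with a median of 136. In 123 of them every library reached 50, and 187 reached 50 in both wild-type libraries. Another 4 passed the threshold through a single group: C47G2.6 and T11F9.19 through the triple mutant, H05C05.3 through F25 and R11H6.6 through wild type. These 4 had to be high in that group, so their differences from it are no finding, although they are included in the counts of called members below. By their second-highest value, B0250.3 (50.3), ZK402.3 (50.3) and R11H6.6 (50.8) lay just inside the threshold, and srd-37 (49.5), Y50D4C.2 (49.0) and Y48A6C.1 (48.4) just outside it.

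Reads counted at a pseudogene can belong to a neighbour where annotations overlap. Exons of 24 members overlapped a feature on the opposite strand, among them protein-coding genes in 12 cases and piRNA genes in 7, and 11 overlapped a feature on their own strand. The 198 members with no overlap of either kind are counted separately where a result allows it. Of all 232 members, with or without such an overlap, 86 lay within 20000 bases of a fellow member. How many members share near-identical sequence with a functional relative was not analysed here, so reads of members with close copies are uncertain.

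Among the 6 members with the highest mean level, Y39E4B.14 and Y59H11AR.6 were the strongest per length. They held 10872 and 9206 normalized counts per kilobase of exon averaged over all libraries. Y46H3C.6 followed with 7225, Y48G1BM.8 with 4745, F37H8.2 with 3928 and cars-2 with 2234. The cars-2 locus is named for a cysteinyl-tRNA synthetase. Y39E4B.14, Y59H11AR.6 and F37H8.2 overlap an annotated RNA on the opposite strand, and Y59H11AR.6 also overlaps a protein-coding gene there.

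These abundant loci did not share a pattern. At Y39E4B.14 (chromosome III, 13162475 to 13164864) the triple mutant held 13504 and 13728 normalized counts, meg-3 meg-4 8451 and 8736, and wild type 6648 and 6870.1. At Y46H3C.6 (chromosome V, 1697889 to 1701617) the triple mutant held 11198 and 10722, meg-3 meg-4 13309 and 12673, the descendants 9221 to 12346, and wild type 6994 and 7025. Every mutant and descendant library at Y46H3C.6 was thus above wild type. At Y48G1BM.8 the triple mutant held 2095 and 2073, against 4634 and 4881 in meg-3 meg-4 and 3956 and 4080.3 in wild type, so its libraries lay lowest.

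As a share of all normalized counts, the 232 pseudogenes made up 6.97% ± 0.010 in the triple mutant, 7.06% ± 0.39 in meg-3 meg-4, 7.195% ± 0.32 at F3, 7.23% ± 1.17 at F10, 7.99% ± 0.66 at F15, 7.55% ± 0.77 at F25 and 7.77% ± 0.15 in wild type (SD, n = 2 each), with the other descendant groups between those of F3 and F15. The 2 libraries of F10 held 6.40% and 8.06%, a wider gap than that between any of the group means. The summed level was 126367 ± 2637 normalized counts in the triple mutant, 153012 ± 6658 in meg-3 meg-4 and 131153 ± 2064 in wild type (SD, n = 2 each), so meg-3 meg-4 lay above wild type by the sum and below it by the share. No test was made on either. The spread of the counts within the set also differed. The 10 most abundant members took 48.8% of the set's counts in either triple mutant library, 38.4% and 38.9% in meg-3 meg-4, and 35.1% and 35.6% in wild type. Among these 10, Y39E4B.14, Y46H3C.6 and F37H8.2 were higher in the triple mutant than in wild type, and Y48G1BM.8 and cars-2 were lower. At Y59H11AR.6 the libraries of these groups overlapped, and the rest of the 10 are not listed here. The 10 were ranked by their mean over the same 24 libraries, and no matching figure was made for other features. The heat map of all members shows these shifts library by library.

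**Figure D1:**
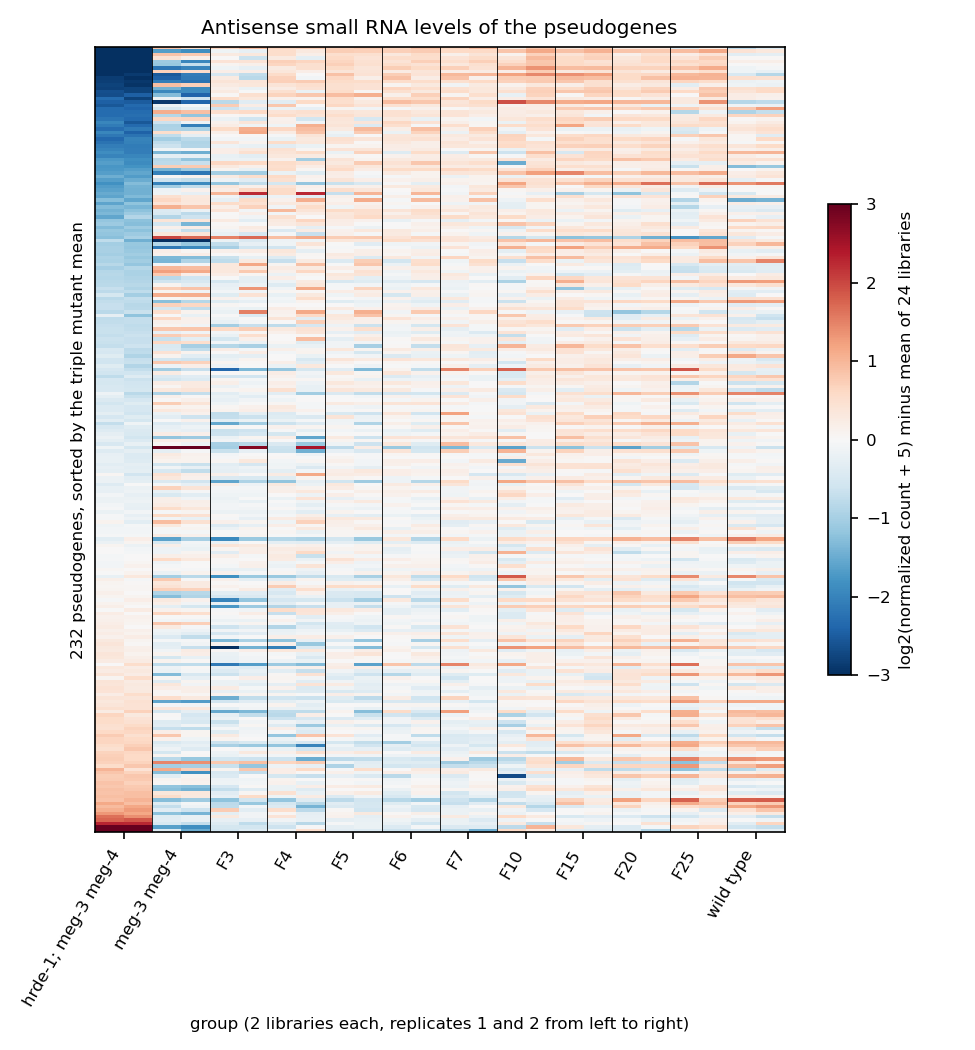
Antisense small RNA levels of the 232 pseudogenes (rows, sorted by the triple mutant mean) in the 24 libraries (columns, replicates 1 and 2 of each group). Colour gives log2(normalized count + 5) minus the mean of the 24 libraries, with blue below and red above. The triple mutant columns hold most of the deep blue, at the top of the panel, where 77 members have their lowest values in these libraries.

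The comparison of meg-3 meg-4 with wild type asks which pseudogenes have more or fewer small RNAs in animals that lack MEG-3 and MEG-4. Small RNAs fell at 80 of the 232 pseudogenes and rose at 39, and 113 did not pass the test (limma on log2(normalized count + 5), adjusted p under 0.05 over 8869 features). Over all features tested, 17.6% were lower and 8.28% higher. Among 4906 protein-coding genes with the same coverage, 20.3% were lower and 10.3% higher, against 34.5% and 16.8% of the pseudogenes. The median log2 change was -0.23 over the pseudogenes and -0.01 over all features. Of the 80 lower pseudogenes, 56 fell by more than 1 on the log2 scale, and of the 39 higher ones 15 rose by more than 1. Among the 198 members with no overlapping feature, 69 fell and 33 rose. With libraries scaled to equal totals, which shifts the median of all features by -0.32, 115 fell and 25 rose. The bar plot of called shares sets the pseudogenes beside both backgrounds in each comparison.

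**Figure D2:**
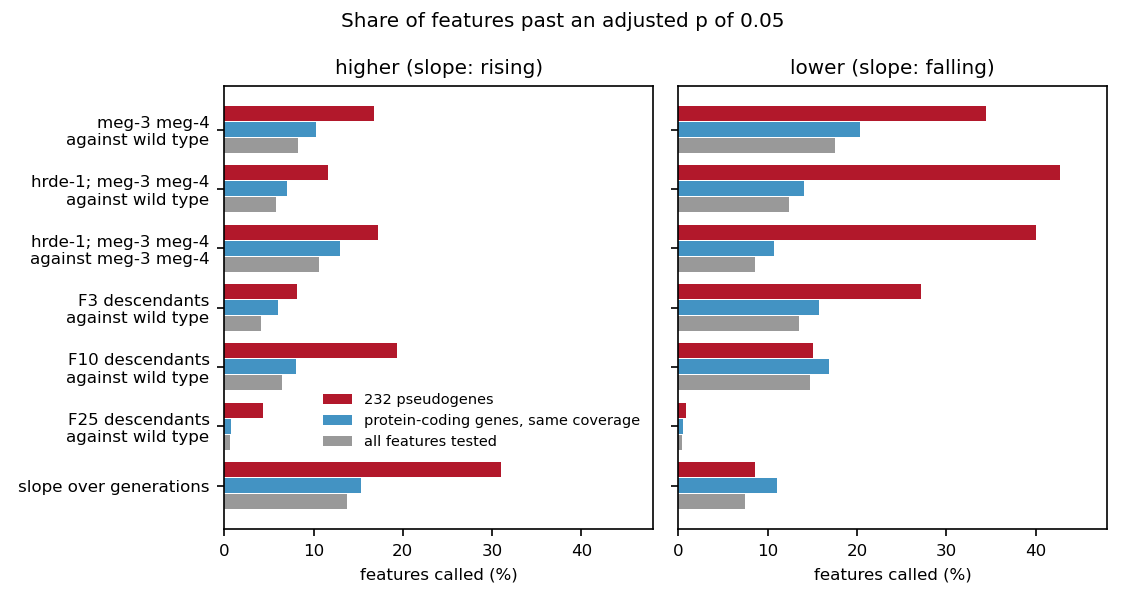
Share of features past an adjusted p of 0.05 (x axis, percent), higher on the left and lower on the right, for the 232 pseudogenes, 4906 protein-coding genes of the same coverage and all 8869 features tested. Bars start at 0 and carry no error. The pseudogene bar is the longest in the comparisons shown except for the lower side of F10, at 15.1% against 16.9% of the protein-coding genes, and the falling slopes, at 8.62% against 11.1%.

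The largest loss in meg-3 meg-4 was at Y73F8A.33 (chromosome IV, 15515495 to 15520934), which overlaps a protein-coding gene on the opposite strand. It held 27.7 and 19.6 normalized counts in meg-3 meg-4, against 396 and 354 in wild type (log2 change -3.74, SE 0.16, limma adjusted p 2.1e-12). At F52G3.3 (chromosome X, 16944858 to 16948026) the values were 85.2 and 78.6 in meg-3 meg-4 and 582 and 577 in wild type (log2 change -2.75, SE 0.15, limma adjusted p 4.45e-11). The mutant libraries of these loci lay far below wild type, with no overlap. Neighbouring Y71A12B.15 and Y71A12B.18 on chromosome I fell together. Y71A12B.18 held 217 and 223 in meg-3 meg-4, against 1104 and 1263 in wild type, and Y71A12B.15 held 7.74 and 10.8, against 91.5 and 88.8 (log2 changes -2.40, SE 0.18, and -2.74, SE 0.33). Other losses were at Y53G8B.3 (-3.41, SE 0.31), Y82E9BR.1 (-2.97, SE 0.29), Y24F12A.4 (-2.67, SE 0.35) and M162.12 (-2.41, SE 0.46), and all 4 passed the test.

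The largest gain in meg-3 meg-4 was at F07H5.4 (chromosome II, 8786457 to 8787119). It held 383 and 489 normalized counts in meg-3 meg-4, against 8.68 and 4.67 in wild type (log2 change 5.25, SE 0.90, limma adjusted p 0.000171). In the triple mutant it was back at 9.005 and 5.52. Among descendants it stood at 97.9 and 79.8 in replicate 2 of F3 and F4, against 2.47 and 4.72 in replicate 1 of these generations, and every later library was at 12.8 or lower. F07H5.4 was thus high in 4 of 24 libraries. At T02G5.4 (chromosome II, 7082102 to 7084083) the values were 2437 and 2152 in meg-3 meg-4 and 597 and 699 in wild type (log2 change 1.82, SE 0.15). At H06O01.4 they were 492 and 370.2 in meg-3 meg-4 and 119.8 and 171 in wild type (log2 change 1.54, SE 0.27). Y48G1BL.5 rose by a log2 change of 2.06 (SE 0.18), and its later course is given with the generations.

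In the triple mutant against wild type, which share the wild-type libraries with the comparison above, 99 pseudogenes fell and 27 rose. Over all features 12.4% were lower and 5.83% higher, and over protein-coding genes of the same coverage 14.1% and 7.01%, against 42.7% and 11.6% of the pseudogenes. The median log2 change of the pseudogenes was -0.45, against -0.02 over all features. Of the 99 that fell, 71 fell by more than 1 and 36 by more than 2 on the log2 scale. Among the 198 members with no overlapping feature 87 fell and 23 rose, and with libraries scaled to equal totals 16 of all members rose.

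The deepest loss was at dct-10 (chromosome V, 20506503 to 20509510), a locus named as a target of the insulin pathway factor DAF-16. It held 18.9 and 16.6 normalized counts in the triple mutant, 179 and 157 in meg-3 meg-4, and 785 and 719.9 in wild type (triple mutant against wild type, log2 change -5.06, SE 0.12, limma adjusted p 2.18e-16). The genotypes thus formed 3 separate levels there. At Y68A4A.12 (chromosome V, 17209065 to 17209955) the triple mutant held 1.80 normalized counts, which is 2 reads, and 0, both under the level of 3 reads in these libraries (2.70 and 2.37), against 82.2 and 82.3 in wild type. Its fitted change of -3.90 depends on the added 5 and is no bound.

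Other pseudogenes were high in meg-3 meg-4 and low in the triple mutant. At Y53F4B.16 (chromosome II, 15052083 to 15054573) the triple mutant held 36.0 and 16.6 normalized counts, against 2027 and 1597 in meg-3 meg-4 and 644 and 839 in wild type. At C06C3.5 (chromosome II, 9380106 to 9381355), which overlaps the protein-coding gene srh-48 on the opposite strand, it held 117 and 194, against 4185 and 4036 in meg-3 meg-4 and 1876 and 1939.7 in wild type. At ZC15.4 (chromosome V, 20302135 to 20303443) it held 105 and 82.8, against 1608 and 1457 in meg-3 meg-4 and 915 and 863 in wild type. In all 3 the triple mutant was lowest and meg-3 meg-4 above wild type. Against meg-3 meg-4 the log2 changes were -5.92 (SE 0.25) for Y53F4B.16, -4.72 (SE 0.20) for C06C3.5 and -3.96 (SE 0.14) for ZC15.4. F47B7.6 on chromosome X also fell, to 36.0 and 56.8 in the triple mutant, against 971 and 816 in meg-3 meg-4 and 750.1 and 749.7 in wild type (log2 change against wild type -3.91, SE 0.23).

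A smaller group gained small RNAs in the triple mutant. F41G4.5 (chromosome X, 16829493 to 16832740) held 574 and 561 normalized counts in the triple mutant, against 9.96 and 7.86 in meg-3 meg-4 and 25.5 and 23.4 in wild type (log2 change against wild type 4.28, SE 0.37, limma adjusted p 2.49e-08). No descendant library exceeded 88.3 there, and F41G4.5 reached the threshold of 50 in both F25 libraries too. W03F9.3 and F55A3.7 also rose, by log2 changes of 2.06 (SE 0.23) and 1.85 (SE 0.12) against wild type. T11F9.19 (chromosome V, 11491829 to 11492590) held 288 and 279.9 in the triple mutant, against 5.53 and 0 in meg-3 meg-4 and 8.10 and 6.42 in wild type. C47G2.6 held 81.9 and 80.4 in the triple mutant, against 7.74 and 5.89 in meg-3 meg-4 and 9.26 and 22.8 in wild type. Both entered the set only by their triple mutant libraries, so these values are a description with no test, and both are among the 27 that rose.

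Set directly against meg-3 meg-4, the triple mutant differed at 133 pseudogenes, and the labelled genotypes of these strains, YY1512 and JH3225, differ in hrde-1. Differences of strain background cannot be told apart from that of hrde-1 here. Small RNAs fell at 93 pseudogenes and rose at 40, T11F9.19 and C47G2.6 among the 40. Over all features 8.63% were lower and 10.6% higher, and over protein-coding genes of the same coverage 10.7% and 13%, against 40.1% and 17.2% of the pseudogenes. With libraries scaled to equal totals, which shifts the median of all features by 0.22, 63 fell and 50 rose. Besides F41G4.5, gains were at Y38H8A.8, with 1927 and 1751 in the triple mutant and 329.7 and 294 in meg-3 meg-4 (log2 change 2.54, SE 0.13), and at the F-box locus fbxb-4, with 218 and 193 in the triple mutant and 46.5 and 30.4 in meg-3 meg-4 (2.30, SE 0.21). Y38H8A.8 stood at 878 and 951 and fbxb-4 at 135 and 145 in wild type, between the mutants.

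**Figure D3:**
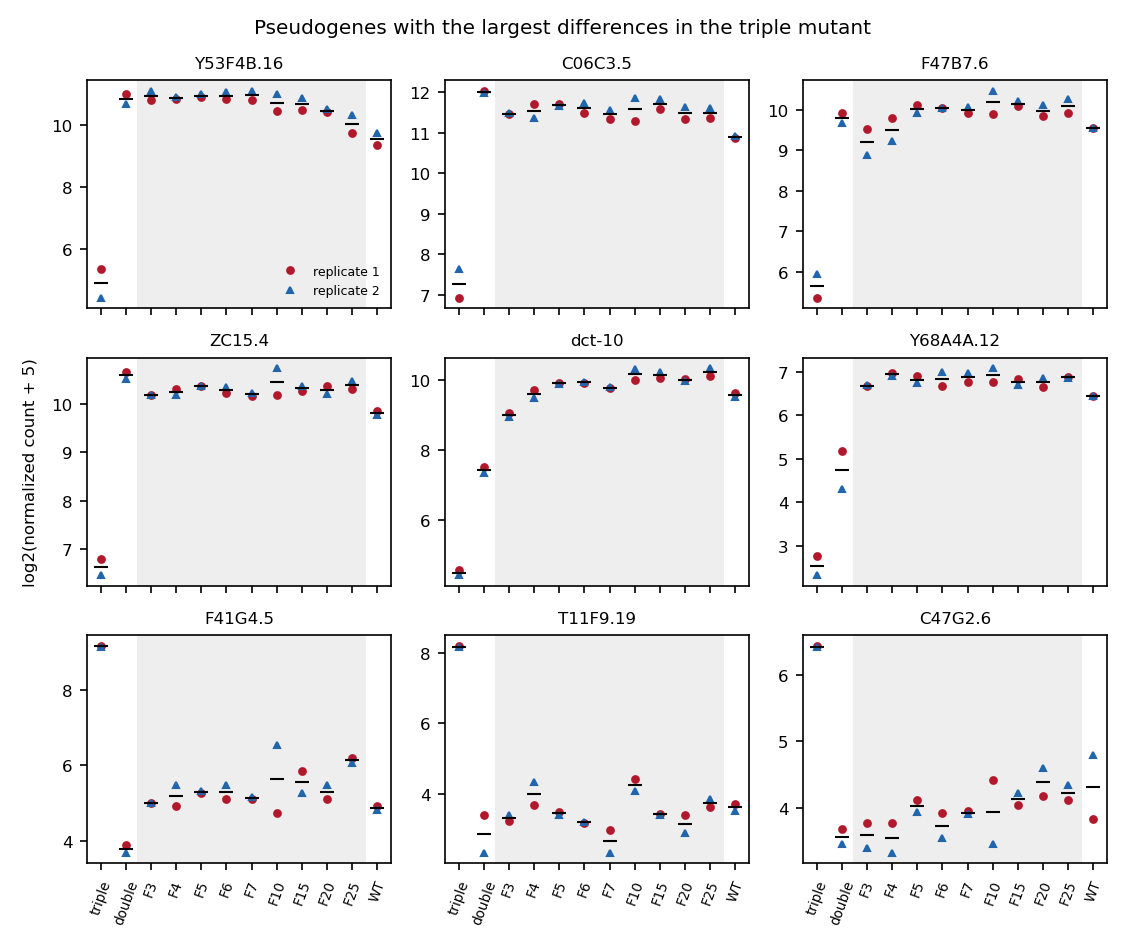
Levels of 9 pseudogenes with large differences in the triple mutant, as log2(normalized count + 5) on a y axis of its own for each. Points are single libraries, bars are group means, grey marks the descendant generations, and triple, double and WT stand for hrde-1; meg-3 meg-4, meg-3 meg-4 and wild type. In the upper 6 panels the triple mutant libraries lie below all others, and in the lower 3 above all others, which for T11F9.19 and C47G2.6 follows from how members were chosen.

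The order of libraries gives the same contrast without a model and with no test, under the deposited scaling only. In 77 of the 232 pseudogenes both triple mutant libraries lay below the other 22 (33.2%, against 7.61% of all features and 9.25% of the protein-coding genes of the same coverage), and in 23 above them (9.91%, against 7.02% and 8.11%), T11F9.19 and C47G2.6 among the 23 and H05C05.3 among the 77. In 23 pseudogenes both meg-3 meg-4 libraries lay above the other 22 (9.91%, against 3.71% and 4.42%), and in 18 below (7.76%, against 3.3% and 4.57%). In 37 all 4 mutant libraries lay below every descendant and wild-type library (15.9%, against 4.28% and 5.83%), while Y54H5A.5 alone showed the opposite order (0.431%, against 1.13% and 1.43%). Among the 37, Y54G2A.21 (chromosome IV, 2902436 to 2914816) held 424 and 475 in the triple mutant, 1098 and 1081 in meg-3 meg-4, a lowest of 1557, a median of 2454 and a highest of 4450.2 in the descendants, and 2752 and 3009 in wild type.

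Named gene families among the pseudogenes were small. BATH genes encode proteins with MATH and BTB domains that act as substrate adaptors of cullin ubiquitin ligases, and 6 pseudogenes bear this name, all on chromosome II. In meg-3 meg-4, 4 of the 6 rose and none fell, in the triple mutant none rose and 5 fell against wild type, and all 6 fell against meg-3 meg-4. Over all features 8.28% rose and 17.6% fell in meg-3 meg-4, 5.83% and 12.4% in the triple mutant against wild type, and 10.6% and 8.63% in the triple mutant against meg-3 meg-4. Over the 232 pseudogenes these shares were 16.8% and 34.5%, 11.6% and 42.7%, and 17.2% and 40.1%. The median log2 changes were 1.19 in meg-3 meg-4 and -0.76 in the triple mutant against wild type, and 0.85 and -0.86 with libraries scaled to equal totals.

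At bath-22 (chromosome II, 1927879 to 1928734) the triple mutant held 173 and 166 normalized counts, meg-3 meg-4 993 and 1022, and wild type 237 and 265. At bath-11 (chromosome II, 1913605 to 1916376) the triple mutant held 715 and 791, meg-3 meg-4 2872 and 2742, and wild type 1088 and 1142. Both loci were thus highest in meg-3 meg-4 and lowest in the triple mutant. The rises in meg-3 meg-4 over wild type were 1.99 (SE 0.18) for bath-22, 1.33 (SE 0.11) for bath-11, 1.20 (SE 0.21) for bath-6 and 1.19 (SE 0.22) for bath-14 on the log2 scale. The other two did not pass the test in this comparison, with 0.29 (SE 0.12, limma adjusted p 0.0836) for bath-12 and -0.01 (SE 0.21, limma adjusted p 0.987) for bath-18. In the triple mutant against wild type bath-6 did not pass, with a log2 change of -0.32 (SE 0.21, limma adjusted p 0.355). Over the descendant generations bath-6, bath-11, bath-14 and bath-18 had falling slopes. bath-22 stayed above wild type in all 18 descendant libraries, with a lowest of 368, a median of 715 and a highest of 847.

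**Figure D4:**
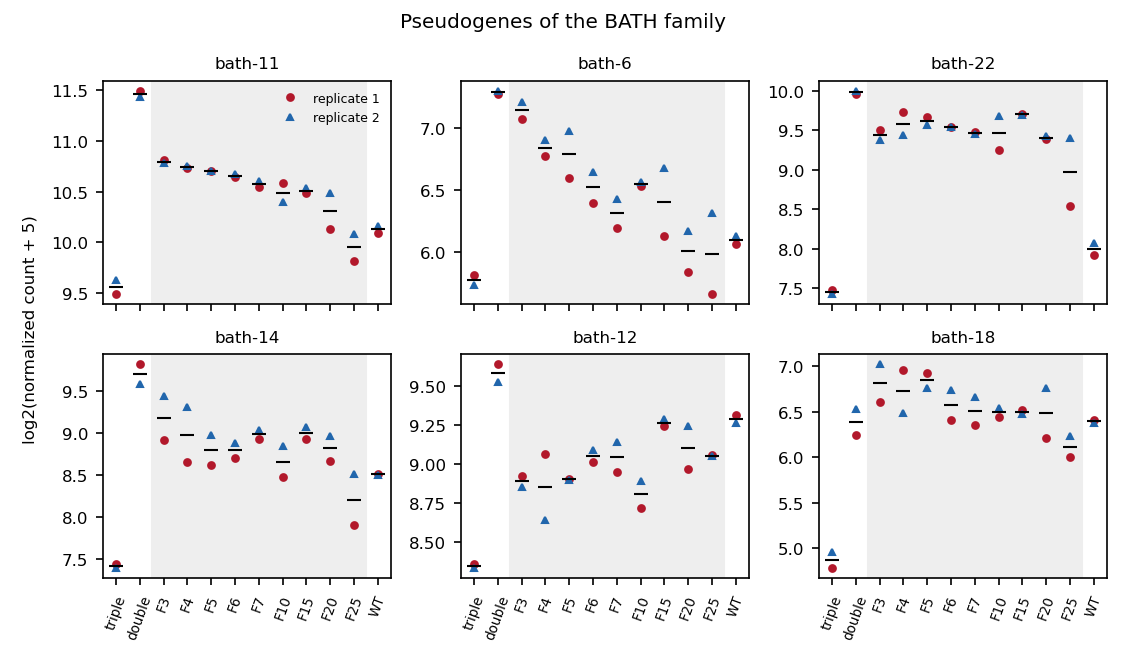
Levels of the 6 BATH pseudogenes as log2(normalized count + 5), with a y axis of its own for each. Points are single libraries, bars are group means, grey marks the descendant generations, and triple, double and WT stand for hrde-1; meg-3 meg-4, meg-3 meg-4 and wild type. The triple mutant libraries are the lowest of their panel in bath-11, bath-22, bath-14, bath-12 and bath-18, and in bath-6 the F25 replicate 1 library lies lower.

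F-box genes encode substrate adaptors of another ubiquitin ligase, and 15 pseudogenes bear an F-box name (10 fbxa, 3 fbxc and 2 fbxb). In meg-3 meg-4, 3 rose and 8 fell against wild type, where 8.28% of all features and 16.8% of the pseudogenes rose and 17.6% and 34.5% fell. In the triple mutant none rose and 7 fell against wild type, where 5.83% of all features and 11.6% of the pseudogenes rose and 12.4% and 42.7% fell. fbxa-203 (chromosome I, 3371769 to 3373834) held 1462 and 1371 normalized counts in the triple mutant, 6188 and 5836 in meg-3 meg-4, and 1930.3 and 2088 in wild type (meg-3 meg-4 against wild type, log2 change 1.58, SE 0.18). fbxa-149 on chromosome V held 178 and 162 in the triple mutant, 1293 and 1305 in meg-3 meg-4, and 849 and 893 in wild type (triple mutant against wild type, -2.33, SE 0.23). fbxa-191, also on chromosome V, was lowest in meg-3 meg-4, with 45.9 and 39.4 in the triple mutant, 17.7 and 21.6 in meg-3 meg-4, and 106 and 107 in wild type. Thus both mutants were below wild type at fbxa-191, while at fbxa-203 and fbxa-149 the meg-3 meg-4 libraries were the higher ones.

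Descendants of wild-type genotype address how long the altered small RNA levels last once meg-3 and meg-4 are restored. All comparisons of descendants with wild type share the same 2 wild-type libraries. At F3, 63 pseudogenes were lower and 19 higher than in wild type, against 13.5% lower and 4.1% higher over all features, 15.8% and 5.97% of the protein-coding genes of the same coverage, and 27.2% and 8.19% of the pseudogenes. Without F3 replicate 2, wild-type replicate 1 or wild-type replicate 2 the number of higher ones was 11, 10 or 11, and without wild-type replicate 2 the lower ones numbered 41. With equal library totals, which shifts the median of all features by -0.10, 77 were lower and 12 higher.

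Among the losses at F3, Y82E9BR.1 (chromosome III, 1458536 to 1466451) held 31.5 and 50.5 normalized counts, against 286 and 293 in wild type (log2 change -2.71, SE 0.29, limma adjusted p 1.99e-06). Y24F12A.4 (chromosome IV, 11616121 to 11617984) held 23.5 and 44.2 at F3, against 302 and 238 in wild type (-2.87, SE 0.35). T08B6.2 (chromosome IV, 4894370 to 4897043) held 3.09 and 25.3 at F3, against 131 and 120.3 in wild type (-3.06, SE 0.48). The F3 libraries were well below wild type at these loci, although the replicates of T08B6.2 were far apart. fbxc-37 and Y51H7C.15 fell by log2 changes of -2.72 (SE 0.57) and -2.61 (SE 0.50).

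Gains at F3 were at Y48G1BL.5, bath-22, Y53F4B.16, fbxa-129 and F28F8.10. Y53F4B.16 held 1756 and 2141 at F3, against 644 and 839 in wild type (log2 change 1.39, SE 0.25). fbxa-129 held 50.7 and 93.2 at F3, against 18.5 and 19.9 in wild type (1.61, SE 0.41, limma adjusted p 0.00911), and its call was lost without F3 replicate 2 or either wild-type library. F28F8.10 held 94.6 and 231 at F3, against 31.3 and 45.5 in wild type (1.84, SE 0.54, limma adjusted p 0.0231), and its call was lost in the same 3 cases and without the filter on low values.

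At F10, 45 pseudogenes were higher and 35 lower than in wild type, against 6.44% higher and 14.8% lower over all features, and 19.4% and 15.1% of the pseudogenes. Among protein-coding genes of the same coverage 8.03% were higher and 16.9% lower. The split depended on the scaling: with libraries scaled to equal totals, which shifts the median of all features by -0.25, 11 were higher and 56 lower, and with TMM scaling 34 and 39. Without wild-type replicate 1 the counts were 24 higher and 21 lower, and without wild-type replicate 2 they were 27 and 19. F52C6.14 (chromosome II, 1931143 to 1934507) held 137 and 95.5 at F10, against 15.6 and 16.9 in wild type (log2 change 2.49, SE 0.32, limma adjusted p 2.62e-05). Y37H2B.1 (chromosome V, 18227037 to 18231455) held 120.3 and 142 at F10, against 33.6 and 25.1 in wild type (1.99, SE 0.24). fbxa-129 held 54.7 and 88.3 at F10, against 18.5 and 19.9 in wild type (1.63, SE 0.41), and its call was lost without F10 replicate 2 or wild-type replicate 1. In the mutants F52C6.14 and Y37H2B.1 were nearly empty, with 0 to 2.37 normalized counts in the triple mutant and 0 to 7.86 in meg-3 meg-4. Lower at F10 were Y82E9BR.1 (-2.02, SE 0.29), Y73B6A.6 (-1.78, SE 0.28) and F54D11.3 (-2.61, SE 0.46), the last with no read in F10 replicate 1, where 3 reads are worth 16.4 normalized counts, and 19.1 in replicate 2, against 60.8 and 63.1 in wild type. Y73B6A.6 had only 3 reads in F10 replicate 1.

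At F25, 10 pseudogenes were higher and 2 lower than in wild type, against 0.631% and 0.417% of all features, 0.795% and 0.55% of the protein-coding genes of the same coverage, and 4.31% and 0.862% of the pseudogenes. At an unadjusted limma p under 0.05, 35 were higher and 13 lower. The shares of all features at this unadjusted level were not computed, so these counts have no background to be read against. Leaving out F25 replicate 2 or either wild-type library left 4 or 5 higher, and leaving out F25 replicate 1 or either wild-type library left 1 lower, and with equal totals, which shifts the median of all features by -0.15, 4 were higher and 3 lower. Y37H2B.1 held 101 and 106 at F25, against 33.6 and 25.1 in wild type (log2 change 1.67, SE 0.24, limma adjusted p 0.000606). Y73B3A.7 (chromosome X, 137029 to 138075) held 234 and 282 at F25, against 116 and 123 in wild type (1.08, SE 0.16), and in the mutants it was far lower, with 5.40 and 8.67 in the triple mutant and 24.3 and 28.5 in meg-3 meg-4. F52C6.14 (1.62, SE 0.32), bath-22 (0.98, SE 0.18) and EGAP798.1 (0.75, SE 0.18) were also higher. F52C6.14 lost its call without F25 replicate 2 or either wild-type library and with a pseudocount of 1, and bath-22 without F25 replicate 2 or wild-type replicate 1 and with equal library totals. EGAP798.1 lost it without any 1 of the 4 libraries, with a pseudocount of 1, without the filter on low values, with equal library totals and with TMM scaling. The lower pair was Y48G1BL.5, and rrn-3.56, a fragment of the large ribosomal RNA gene that overlaps an annotated non-coding RNA on the opposite strand, with 365 and 525 at F25, against 1148 and 994 in wild type (-1.28, SE 0.25, limma adjusted p 0.0114). That call was lost without F25 replicate 1 or either wild-type library.

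Across the 18 descendant libraries, which use neither mutant nor wild-type libraries, the level rose with generation at 72 pseudogenes and fell at 20 (limma slope of log2 level on generation number). Over all features 13.8% rose and 7.51% fell, and over protein-coding genes of the same coverage 15.3% and 11.1%, against 31% and 8.62% of the pseudogenes. Without F25 replicate 1, 13 pseudogenes had a falling slope. Successive generations may descend from each other, so these libraries may not be independent and the p-values may be too small. Along the same generations 2 of the 4 sperm genes had rising slopes. The neuronal sum was highest at F25 among the descendants, although 1 of the 5 neuronal genes had a rising slope and 1 a falling slope. The part of these marker genes in the slopes of the pseudogenes was not tested.

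Y82E9BR.1 had a slope of 0.107 log2 units per generation (SE 0.0096, limma adjusted p 3.77e-08). It held 31.5 and 50.5 normalized counts at F3, 50.3 and 41.99 at F7, 71.1 and 64.4 at F10, 129.6 and 95.1 at F15, 189.9 and 127 at F20, and 283 and 139 at F25, against 286 and 293 in wild type. It changed little until F7, and F25 replicate 1 came near the wild-type level while replicate 2 did not. Y53G8B.3 (chromosome III, 3105668 to 3111828) held 9.90 and 15.0 at F3, 32.3 and 30.5 at F7, 71.1 and 41.8 at F10 and 55.8 and 103 at F25, against 79.9 and 94.0 in wild type (slope 0.107, SE 0.014). From F10 on its libraries held 41.8 to 103. Y24F12A.4 (slope 0.107, SE 0.015), T08B6.2 (0.119, SE 0.027) and fbxa-46 (0.105, SE 0.026) also rose. fbxa-46 held 0.619 and 6.32 at F3 and 99.1 and 38.0 at F25, against 28.9 and 19.3 in wild type. Its value in F3 replicate 1 is 1 read, under the level of 3 reads there (1.86), so its slope depends on the added 5.

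Y48G1BL.5 (chromosome I, 219735 to 221575) had the steepest fall, with a slope of -0.138 (SE 0.012, limma adjusted p 4.19e-08). It held 383 and 441 normalized counts at F3, 224 and 230.3 at F5, 173 and 157 at F7, 71.1 and 89.5 at F10, and 35.1 and 41.4 at F25, against 544 and 445 in meg-3 meg-4 and 103 and 126 in wild type. From F10 on every descendant library was below both wild-type libraries. At F25 the difference from wild type was -1.46 on the log2 scale (SE 0.18, limma adjusted p 9.12e-05). H06O01.4 fell with a slope of -0.0655 (SE 0.0076), to 92.9 and 130.2 at F25, and fbxc-46 with one of -0.0638 (SE 0.016). F28F8.10 (-0.0871, SE 0.022) and rrn-3.56 (-0.0582, SE 0.015) also fell, and rrn-3.56 lost its call without the filter on low values.

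**Figure D5:**
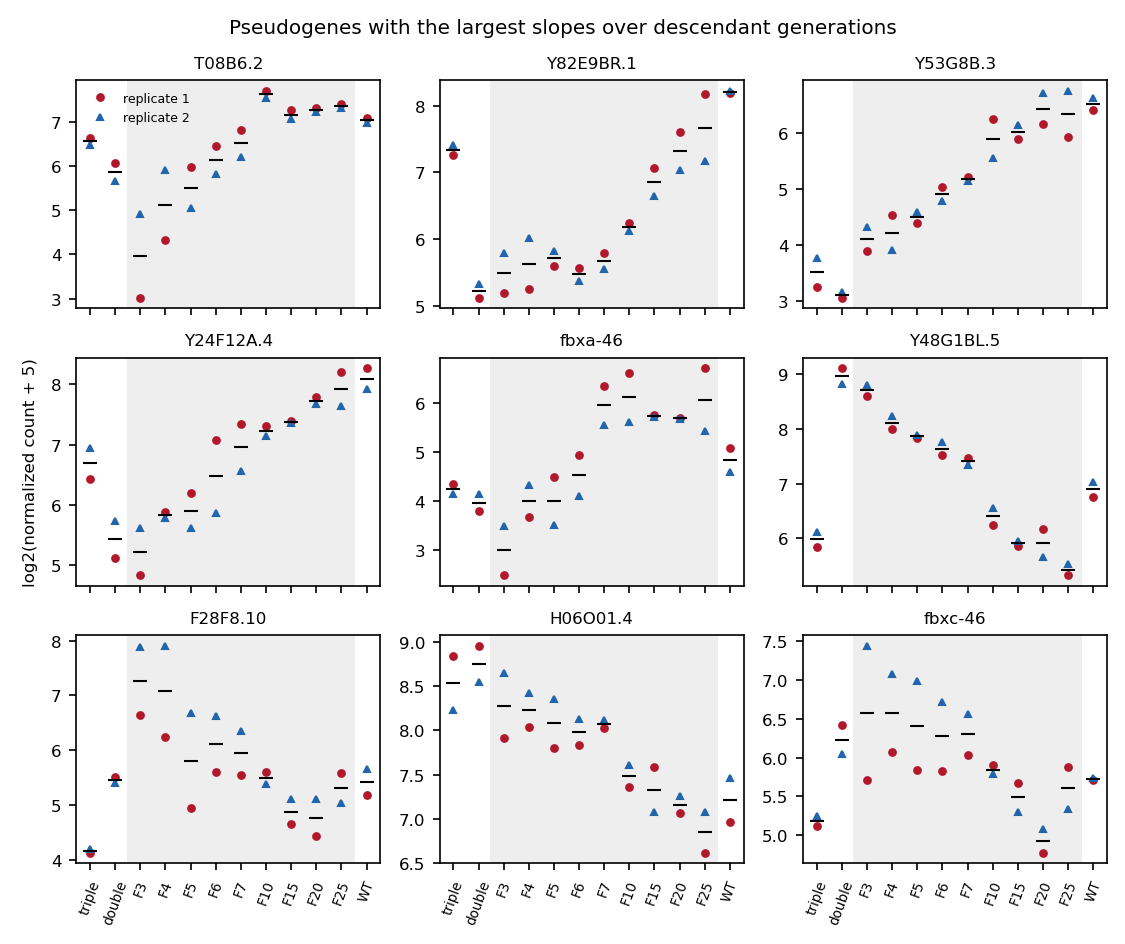
Levels of 9 pseudogenes with the steepest slopes over the descendant generations, as log2(normalized count + 5), with a y axis of its own for each. Points are single libraries, bars are group means, grey marks the generations F3 to F25, and triple, double and WT stand for hrde-1; meg-3 meg-4, meg-3 meg-4 and wild type. The first 5 panels rise with generation, and Y48G1BL.5, F28F8.10, H06O01.4 and fbxc-46 fall, with Y48G1BL.5 ending below wild type.

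At 21 pseudogenes all 18 descendant libraries lay above both wild-type libraries (9.05%, against 2.98% of all features and 3.85% of the protein-coding genes of the same coverage), and at 14 they lay below (6.03%, against 9.01% and 11.4%), R11H6.6 among these. No test goes with these counts, and they hold for the deposited scaling only. Total normalized counts were 1694040 and 1684030 in the wild-type libraries, against 1744780 to 2147580 in the descendants. The order with libraries scaled to equal totals was not counted. Among the 21 were Y46H3C.6, C06C3.5, Y53F4B.16, ZC15.4, Y68A4A.12, bath-22 and fbxa-129. C06C3.5 had a lowest of 2499, a median of 3067 and a highest of 3730.3 normalized counts in the descendants, against 1876 and 1939.7 in wild type. Y68A4A.12, nearly empty in the triple mutant, ran from 94.97 over a median of 110.5 to 130.1 in the descendants, against 82.2 and 82.3 in wild type. Among the 14 were lrg-1, Y60A9A.3, Y82E9BR.1, M162.12 and Y73B6A.6, and M162.12 had a lowest of 21.9, a median of 50.4 and a highest of 70.4 in the descendants, against 75.2 and 78.2 in wild type. The lowest is 4 reads in the shallow F10 replicate 1.

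Some pseudogenes differed between the descendant replicates in the same direction at every generation. Replicate 2 was above replicate 1 in all 9 generations at 10 pseudogenes and below it in all 9 at 2, together 5.17%, against 2.26% of all features. M162.12 held 26.6 in replicate 1 and 67.2 in replicate 2 at F7. At F10 it held 21.9, which is only 4 reads, and 70.4. fbxa-129 and bath-14 were also among the 10, and the 2 with the opposite order were Y57A10A.1 and wee-1.2, a locus named after the WEE1 cell cycle kinases. Whether a replicate number marks a line of descent is not given in the labels.

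Of 47 genes of the small RNA pathway, 45 were listed and 43 were kept. Their own antisense small RNAs rose at 5 and fell at 4 in meg-3 meg-4, and rose at 3 and fell at 4 in the triple mutant, against wild type. Over all features 8.28% rose and 17.6% fell in meg-3 meg-4, and 5.83% and 12.4% in the triple mutant. The falls include meg-3 and meg-4 themselves, and hrde-1 in the triple mutant. At sid-1, which encodes a channel that imports double-stranded RNA, the mean level was 1252 normalized counts in the triple mutant, 11609 in meg-3 meg-4 and 1233 in wild type. At rde-11, an RNAi factor, it was 686 in the triple mutant, 6657 in meg-3 meg-4 and 445 in wild type. Both fell with generation, with slopes of -0.130 and -0.126 (SE 0.0050 and 0.012). At F3 5 genes of the pathway were higher and 2 lower than in wild type, at F10 6 and none, and at F25 none in either direction. The shares of all features were 4.1% higher and 13.5% lower at F3, 6.44% and 14.8% at F10, and 0.631% and 0.417% at F25. Over the generations 2 of the 43 rose and 8 fell, against 13.8% and 7.51% of all features.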

How the data were processed

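Antisense small RNA levels came from a table of 24 libraries, 2 in each of 12 groups, with groups and replicate numbers taken from the labels. The deposited values are a signal for which the submitters' processing notes name cutadapt, Bowtie, featureCounts and DESeq2, with versions, genome build, annotation and strand setting not given in the sources used here. All 386038 values above 0 are whole reads divided by 1 factor per library, within 0.01, and the factors equal DESeq2 median-of-ratios size factors. At 28 microRNA genes with a non-coding RNA on the opposite strand, the non-coding feature was higher in 26, so reads antisense to each feature were counted. Reads were recovered as whole counts for edgeR and DESeq2. Of 46726 features, 46364 matched Ensembl release 115 (WBcel235), used for biotypes and positions, which may not be the build of the authors. Of the 232 pseudogenes, 231 matched RefSeq, and 49 had a symbol other than their sequence name. The symbol is the Ensembl gene name or, where that was missing, the RefSeq symbol. A family is the stem of that symbol, since no sequence was compared.

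The filter kept 8869 features, with 408 pseudogenes among them, that reached 10 normalized counts in 2 or more libraries. Groups were compared with limma 3.58.1 under R 4.3.3 on log2(normalized count + 5), with the variance trended on level, a single fit over the 12 groups and two-sided p-values adjusted by Benjamini-Hochberg over the 8869, at 0.05. The slope on generation number used the 18 descendant libraries. The added 5 understates changes of weak features. In simulated counts for meg-3 meg-4 against wild type over 8869 features, 100 features were changed 2-fold and 100 were changed 4-fold. Of these, 42% and 100% were found, with 2 unchanged features called. For a simulated slope with the same numbers changed, the shares were 86% and 100%, with 0 unchanged features called. The real comparison of meg-3 meg-4 with wild type called 734 features higher and 1564 lower, far more than the simulation changed. The simulated shares and counts are therefore not the sensitivity or error rate of the real comparisons. The replicates are labelled biological, with no word on separate cultures, so the p-values cover only the spread seen between the libraries, which may be technical. The level of 3 reads is the 95% limit of a feature with no read, for counting error only, since PCR copies are not independent molecules.

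Named pseudogenes are the called members with the largest change in each direction (8 each way for meg-3 meg-4 against wild type, 3 for F10 and 5 for the rest). Except for the slope, these called members also had to show no overlap between the groups. Also named are the 6 with the highest mean, those around the threshold and families of 3 or more. Other names were picked after their values were seen. The members and lists were chosen with earlier results of these data known. Alternatives were a pseudocount of 1, no filter, equal library totals, TMM scaling, edgeR 4.0.16, DESeq2 1.42.0, a replicate block, leaving out both shallow libraries and leaving out each library in turn.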

Additional observations from a re-analysis of the deposited data

How the results depend on the processing

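Counts of pseudogenes called kept within 1.5 times under TMM scaling, without the 2 shallow libraries and with the replicate number as a block. With equal library totals 25 were higher in meg-3 meg-4, 16 in the triple mutant, 12 at F3, 11 at F10 and 4 at F25 than in wild type, and 56 were lower at F10. Without the filter on low values 12 were higher at F3 and 13 slopes fell. On recovered reads edgeR called 33 higher at F3 and 21 at F25, and DESeq2 called 23 lower at F10 and 17 higher at F25. With a pseudocount of 1, 6 were higher at F25. The cause of these moves was not tested. 

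Leaving out each library in turn gave 30 to 34 higher and 61 to 70 lower in meg-3 meg-4 than in wild type, 19 to 21 and 85 to 89 in the triple mutant against wild type, and 29 to 31 and 69 to 79 in the triple mutant against meg-3 meg-4. The ranges were 10 to 18 higher and 41 to 50 lower at F3, 24 to 41 and 19 to 39 at F10, 4 to 7 and 1 to 2 at F25, and 68 to 76 rising and 13 to 24 falling slopes. Fewer libraries enter these fits.

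Of 915 repeats for single pseudogenes under these alternatives, 887 kept their call and direction and 28 lost the call, and none changed sign. These members were picked for the largest called changes in the same libraries, so keeping the call is no independent support. T11F9.19 and C47G2.6, which entered the set only by the triple mutant, are among them. Both kept all 11 repeats in each triple mutant comparison. Same-numbered libraries of different groups had correlations of their deviations from the group means of -0.076 to 0.469 (median 0.081, over 0.1 in 30 of 66 pairs). Among the descendant groups they were -0.050 to 0.469 (median 0.137, over 0.1 in 22 of 36 pairs). Not every pair was over 0.1, so the main fits did not use the numbers to pair the libraries. That rule is strict, and it does not show that same-numbered descendant libraries are unrelated. With the replicate block 43 rose and 81 fell in meg-3 meg-4, 27 and 104 in the triple mutant against wild type, 42 and 96 in the triple mutant against meg-3 meg-4, 23 and 67 at F3, 46 and 40 at F10, and 12 and 3 at F25, and 75 slopes rose and 22 fell. Depth limits F4 replicate 2 and F10 replicate 1, where 3 reads are worth 15.0 and 16.4 normalized counts.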
